A study of Caenorhabditis elegans with 9 samples.

Results

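The transcripts described here are those of 95 protein-coding genes of fat storage, lipolysis and fatty acid oxidation, among 46904 genes in the tables, 19645 of them protein-coding. They were chosen by name: every protein-coding gene called acs-, acdh-, acox-, fat-, elo-, lipl-, cpt-, lbp- or ech-, together with atgl-1, hosl-1, fasn-1, pod-2, daf-22, dhs-28, maoc-1 and sbp-1. By role they fell into 19 genes of synthesis, 9 of lipolysis, 37 of oxidation (27 assigned to mitochondria and 10 to peroxisomes by family) and 30 of activation and binding (21 acyl-CoA synthetases and 9 lipid-binding proteins). The names acdh-12, ech-2, lipl-5 and acs-23 match the pattern, but their rows are not listed as protein-coding alone, and they were left out.

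Caenorhabditis elegans stores triglyceride mainly in the intestine and hypodermis. Fatty acids are built by acetyl-CoA carboxylase (pod-2) and fatty acid synthase (fasn-1), then lengthened by elongases (elo genes) and desaturated (fat genes). Lipases release fatty acids from the store, acyl-CoA synthetases activate them, and carnitine palmitoyltransferases carry them into mitochondria for oxidation, while a peroxisomal pathway shortens very long chains and makes the ascaroside pheromones of dauer entry. Dauer larvae do not feed and live on this store, and AMP-activated protein kinase (AMPK) is known to restrain the lipase ATGL-1 during dauer.

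HZL-1 tagged with GFP was precipitated with an anti-GFP antibody from whole hermaphrodite dauers grown at 25 °C and collected at 96 h, on day 2 of dauer, and the RNA on the beads was sequenced. Animals of all groups carried a daf-2 mutation, and the genotype called aak(0) here also lacked aak-1 and aak-2, both catalytic AMPK subunit genes. In the hzl-1 mutant background, an extrachromosomal hzl-1::GFP array was driven by the intestinal nhx-2 promoter in 3 aak(0) and 3 daf-2 libraries, and by the hzl-1 promoter in 1 library of each genotype. The GFP control was 1 library from daf-2; aak(0) dauers with an nhx-2 promoter driving GFP alone, and its label lists no hzl-1 mutation. Extrachromosomal arrays can be lost from some cells and animals, and no input RNA was analysed, so each value holds both how abundant a transcript was in the lysate and how well it was recovered. Fewer cells of a type and less RNA per cell cannot be told apart in such samples.

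The libraries differed in how many genes they held, and the members followed that difference. In the aak(0) HZL-1 libraries 1, 2 and 3, 25, 81 and 92 of the 95 members were listed above 0 FPKM (fragment counts scaled for gene length and library depth), beside 3439, 13967 and 18666 of all genes. In the daf-2 libraries 1, 2 and 3, the members above 0 numbered 35, 67 and 39, beside 5135, 11510 and 6076 genes. The GFP library held 89 members and 16317 genes. Thus aak(0) library 1 and daf-2 libraries 1 and 3 stood apart, and 41 members were listed at 0 in all 3 of them. A listed 0 was not always an absence of reads: 1 member in daf-2 library 1 and 4 members in daf-2 library 3 were listed at 0 FPKM although more than 100 reads were recorded for them. Protein-coding reads numbered between 1250317 and 3245356 in the intestinal HZL-1 libraries. The 11 matched intestine markers summed to 62.65, 61.93 and 59.63 FPKM in the aak(0) libraries and 50.04, 43.03 and 54.96 FPKM in daf-2. They summed to 73.08 FPKM with GFP, and 6 or 7 of them were at 0 in the 3 libraries that stood apart. The 8 hypodermis markers summed to 44.42, 49.24 and 47.97 FPKM in aak(0), 24.96, 11.02 and 21.26 FPKM in daf-2 and 48.06 FPKM with GFP. For both tissues every aak(0) sum exceeded every daf-2 sum. Summed markers of body wall muscle (47.98 to 301.9 FPKM), neurons (82.58 to 226.35 FPKM) and germline (23.33 to 304.58 FPKM) were also present, with the genotypes overlapping. The part of these tissues in the values below was not tested.

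The members as a whole made up a small and fairly even share of the RNA. They took 0.684%, 0.499% and 0.510% of protein-coding FPKM in the aak(0) libraries 1 to 3, 0.723%, 0.473% and 0.404% in the daf-2 libraries 1 to 3, and 0.532% in the GFP library. The genotypes overlapped, and the GFP library lay within both. Synthesis genes took between 0.183% and 0.426%, oxidation genes between 0.0767% and 0.181%, and activation and binding genes between 0.0891% and 0.190%. Lipolysis genes took the least, between 0.00321% and 0.0265%. The synthesis share was highest in aak(0) library 1 and daf-2 library 1, which also listed few members.

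**Figure D1:**
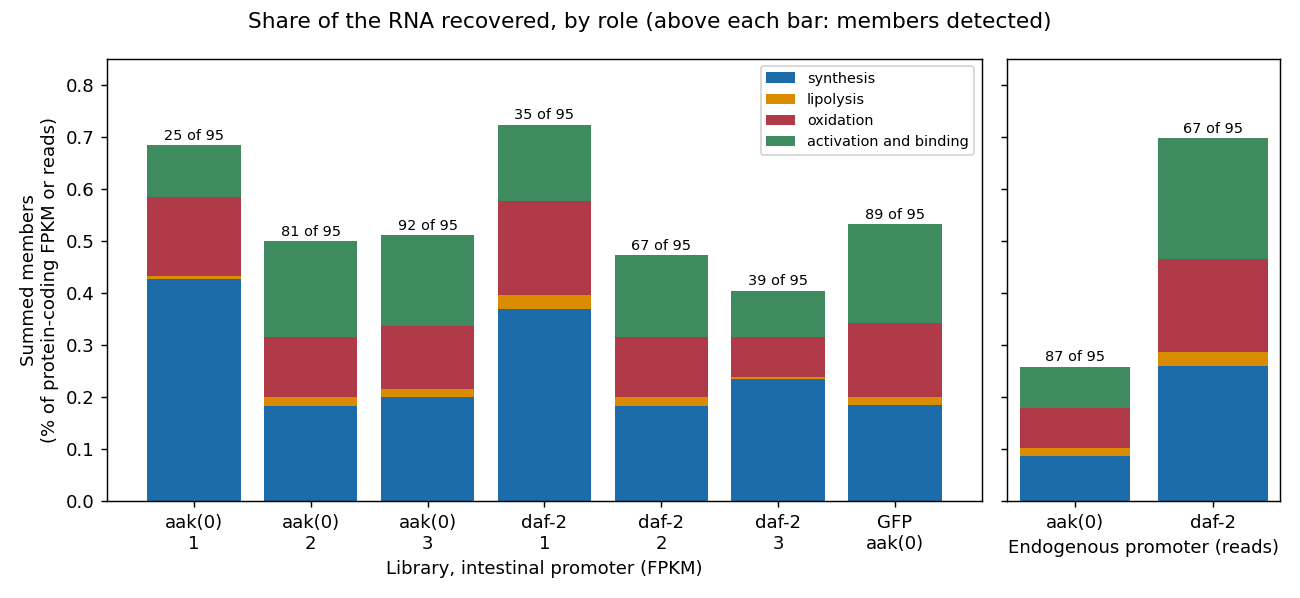
Summed level of the 95 members by role, as a percentage of protein-coding FPKM in the 7 intestinal-promoter libraries (left) and of protein-coding reads in the endogenous-promoter pair (right); the number above each bar counts the members detected. The intestinal libraries lie between 0.404% and 0.723% with the genotypes overlapping, and the endogenous pair stands at 0.259% in aak(0) and 0.698% in daf-2.

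Of the 95 members, 58 reached a mean of 1 FPKM over the 7 libraries and were tested, and 37 did not. The tested members were 16 of 19 synthesis genes, 2 of 9 lipolysis genes, 21 of 37 oxidation genes and 19 of 30 activation and binding genes. Only 15 members were above 0 in all 7 libraries, and each of these also had reads in both endogenous libraries: fat-4, fat-1, fat-2, acs-4, elo-1, fat-6, cpt-1, acs-13, pod-2, ech-1.2, acs-17, cpt-2, fasn-1, acdh-10 and acs-2. The gene lbp-5, of the lipid-binding family, was at 0 in every library.

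Genes of polyunsaturated fatty acid synthesis were the most abundant members. The desaturase gene fat-1 (WBGene00001393, chromosome IV, 13315644 to 13318811, WBcel235) measured 36.27, 30.21 and 32.84 FPKM in the aak(0) libraries, 21.97, 16.48 and 32.37 FPKM in the daf-2 libraries and 31.01 FPKM in the GFP library. Only the aak(0) libraries 1 and 3 exceeded every daf-2 library, so the genotypes overlapped, and the control lay among the aak(0) values. The neighbouring desaturase gene fat-2 (WBGene00001394, chromosome IV, 13323850 to 13326394) measured 64.99, 14.3 and 21.38 FPKM in aak(0), 12.99, 5.59 and 24.2 FPKM in daf-2 and 24.97 FPKM with GFP. Here 1 aak(0) library was far above the other 2, which overlapped with daf-2.

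The desaturase gene fat-4 (WBGene00001396, chromosome IV, 9799429 to 9802638) measured 95.09, 19.01 and 18.52 FPKM in aak(0), 21.43, 14.2 and 28.69 FPKM in daf-2 and 15.71 FPKM with GFP. Library 1 of aak(0) was again the highest, the genotypes overlapped, and all 3 aak(0) libraries exceeded the control. The elongase gene elo-1, which acts in the same pathway, measured 10.69, 28.86 and 25.82 FPKM in aak(0), 12.36, 6.16 and 34.44 FPKM in daf-2 and 27.71 FPKM with GFP. The stearoyl-CoA desaturase gene fat-6 measured 53.46, 8.2 and 9.82 FPKM in aak(0), 29.54, 4.83 and 15.2 FPKM in daf-2 and 11.82 FPKM with GFP. For both genes the genotypes overlapped, and the highest value of elo-1 came from daf-2. In order of mean FPKM over the 7 libraries, fat-4, fat-1, fat-2, acs-4, elo-1 and fat-6 led the members. The spread of their libraries was wide, and the ranges of these 6 overlapped one another.

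The genes that start synthesis, pod-2 and fasn-1, averaged 15.8 and 9.15 FPKM over the 7 libraries. The synthesis genes sbp-1, elo-3 and fat-5 averaged less, at 1.79, 8.03 and 0.383 FPKM. The regulator gene sbp-1, the SREBP homologue, had listed values of 0, 4.36 and 3.33 FPKM in aak(0), 0, 1.39 and 0 FPKM in daf-2, and 3.46 FPKM with GFP. The zeros were those of the libraries that stood apart, but in daf-2 library 3 the listed 0 went with 125 reads, where daf-2 library 2 had 120 reads and 1.39 FPKM. The elongase gene elo-3 measured 0, 6.3 and 8.35 FPKM in aak(0), 18.96, 3.87 and 12.35 FPKM in daf-2 and 6.35 FPKM with GFP, and its groups overlapped. The palmitoyl-CoA desaturase gene fat-5 stayed at or below 1.48 FPKM in every library.

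Of the synthesis genes, 11 of 19 lie on chromosome IV, and 14 pairs of members lie within 10 kb of each other. Some neighbours were close in level and others were not. The fat-1 and fat-2 genes are 5039 bases apart, and their means over the 7 libraries were 28.7 and 24.1 FPKM. The fat-4 and fat-3 genes are 385 bases apart, and their means were 30.4 and 5.4 FPKM. Likewise elo-1 and elo-7 are 1597 bases apart, with means of 20.9 and 1.13 FPKM. In the row of acyl-CoA oxidase genes acox-1.1 to acox-1.4 on chromosome I, the first averaged 2.38 FPKM, and the next 3 averaged 0.0214, 0.0829 and 0.246 FPKM. No source used here says whether strand entered the counting, and 21 members overlap another protein-coding gene. Reads of pod-2, fat-6, sbp-1, fat-5, elo-7, acox-1.4, acs-17, acs-9, acdh-2, acdh-3, acdh-4, dhs-28 and maoc-1, all named in this text, may therefore include those of a neighbour.

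**Figure D2:**
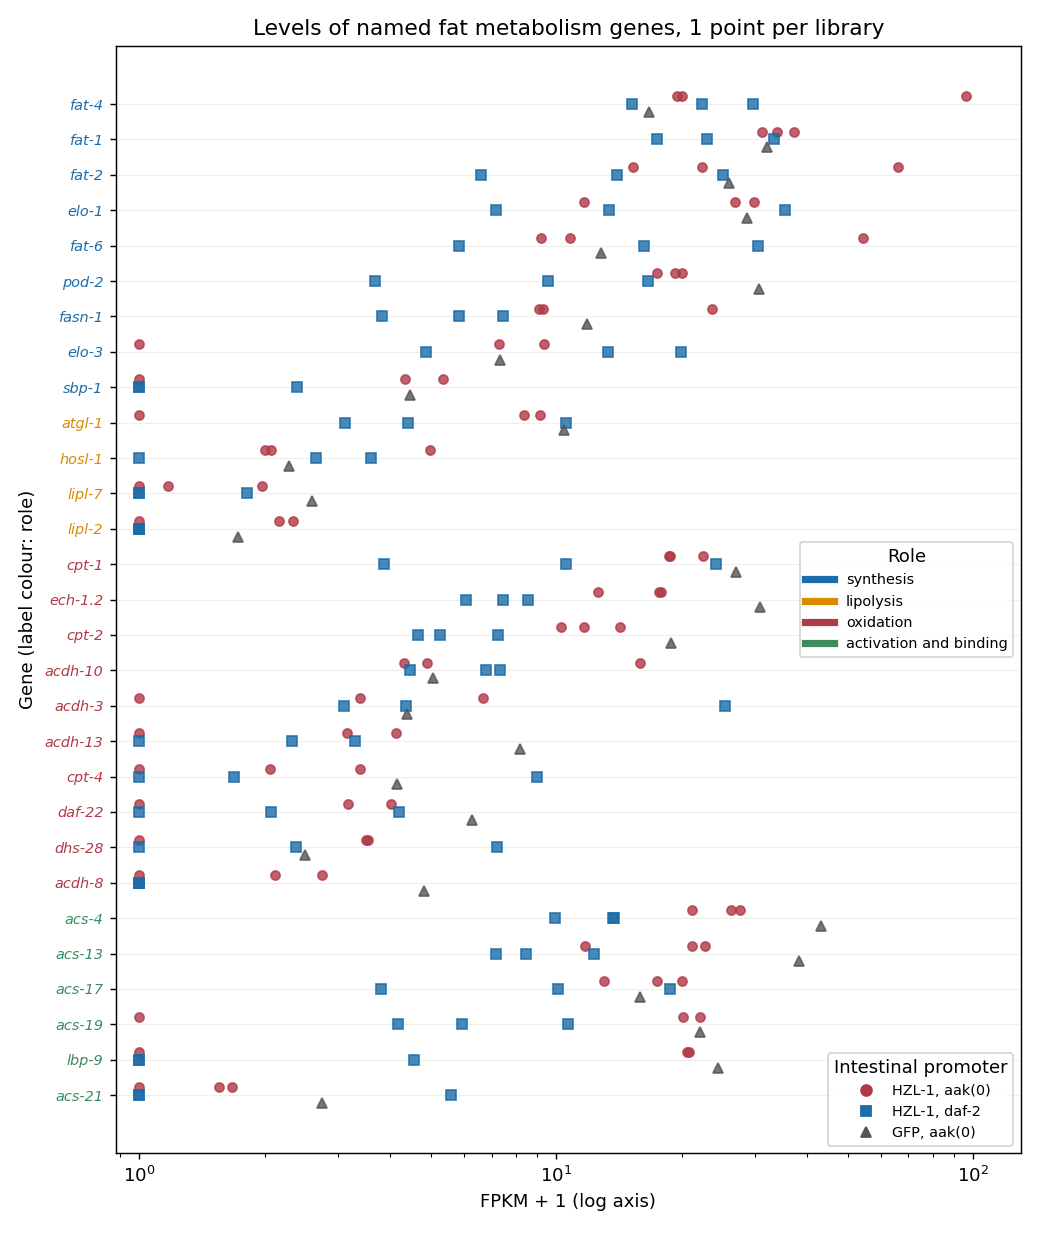
FPKM + 1 on a log axis for members named by the rule with a mean of at least 0.4 FPKM, 1 point per intestinal-promoter library, ordered by role and mean. Points at 1 are listed zeros, most of them from aak(0) library 1 and daf-2 libraries 1 and 3; red and blue points overlap for most genes.

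Lipolysis genes were scarce. The gene atgl-1 (WBGene00015484, chromosome III, 6415774 to 6421885), the adipose triglyceride lipase homologue, had listed values of 0, 8.15 and 7.38 FPKM in aak(0), 9.55, 3.4 and 2.11 FPKM in daf-2 and 9.44 FPKM with GFP. The 0 came from aak(0) library 1, the genotypes overlapped, and the control exceeded all 3 aak(0) libraries. On the log2(FPKM + 1) scale the aak(0) minus daf-2 difference of atgl-1 was -0.30 and became 0.74 without aak(0) library 1 and 0.20 without daf-2 library 1, so its direction rests on those 2 libraries. The hormone-sensitive lipase homologue hosl-1 measured 3.99, 1 and 1.07 FPKM in aak(0), 2.59, 1.66 and 0 FPKM in daf-2 and 1.28 FPKM with GFP, again with overlap. None of the 7 other members, the lipl genes of the lysosomal acid lipase family, reached a mean of 1 FPKM. The highest of these, lipl-7, lipl-2 and lipl-8, did not exceed 1.6, 1.34 and 1.46 FPKM in any library, although lipl-8 had 139 reads in daf-2 library 3, where it was listed at 0.

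Among mitochondrial oxidation genes, cpt-1 had the highest mean over the 7 libraries at 16.9 FPKM, followed by ech-1.2 at 13.4 and cpt-2 at 9.32 FPKM. The carnitine palmitoyltransferase gene cpt-1 (WBGene00012907, chromosome II, 12788252 to 12796452) measured 21.49, 17.67 and 17.74 FPKM in aak(0), 23.16, 9.54 and 2.86 FPKM in daf-2 and 25.95 FPKM with GFP. The highest daf-2 library exceeded every aak(0) library. The acyl-CoA dehydrogenase gene acdh-10 measured 14.88, 3.89 and 3.32 FPKM in aak(0), 6.32, 5.8 and 3.46 FPKM in daf-2 and 4.07 FPKM with GFP. Its relative acdh-3 measured 0, 2.38 and 5.66 FPKM in aak(0), 24.4, 2.09 and 3.35 FPKM in daf-2 and 3.38 FPKM with GFP. The highest value came from aak(0) library 1 for acdh-10 and from daf-2 library 1 for acdh-3, and the genotypes overlapped in both.

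Peroxisomal oxidation genes include those of the pheromone pathway, of which daf-22, dhs-28 and maoc-1 were low. The thiolase gene daf-22 had listed values of 0, 2.17 and 3.02 FPKM in aak(0), 0, 1.07 and 3.2 FPKM in daf-2 and 5.27 FPKM with GFP. The dehydrogenase gene dhs-28 had listed values of 0, 2.54 and 2.49 FPKM in aak(0), 0, 1.38 and 6.2 FPKM in daf-2 and 1.5 FPKM with GFP. The hydratase gene maoc-1 was above 0 in 3 libraries and did not exceed 1.28 FPKM. For these 3 genes the genotypes overlapped. The oxidase genes acox-1.1 and acox-1.6 reached 11.95 and 9.63 FPKM, both in aak(0) library 1.

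Acyl-CoA synthetase genes carried most of the activation and binding share. The gene acs-13 measured 10.71, 20.15 and 21.72 FPKM in aak(0), 11.3, 7.47 and 6.17 FPKM in daf-2 and 37.32 FPKM with GFP. Only aak(0) library 1 fell among the daf-2 values. The gene acs-17 measured 16.44, 19.07 and 12.03 FPKM in aak(0), 2.79, 9.08 and 17.75 FPKM in daf-2 and 14.92 FPKM with GFP, with overlap. The gene acs-19, an acetyl-CoA synthetase homologue, had listed values of 0, 19.19 and 21.08 FPKM in aak(0), 3.18, 9.69 and 4.94 FPKM in daf-2 and 21.18 FPKM with GFP. The lipid-binding protein gene lbp-9 had listed values of 0, 19.8 and 19.62 FPKM in aak(0), 0, 3.55 and 0 FPKM in daf-2 and 23.5 FPKM with GFP. In acs-19 and lbp-9 the aak(0) libraries 2 and 3 exceeded every daf-2 library, and aak(0) library 1 was listed at 0.

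The first comparison asked whether loss of AMPK changed which fat metabolism transcripts were recovered with intestinal HZL-1. No member passed the test: 0 of 58 had a limma adjusted p under 0.05, where 1 of 9649 genes did (0.0104%), and the lowest adjusted p of a member was 0.717. At an unadjusted limma p under 0.05 there were 2 of 58 members, acdh-4 and acox-1.1, against 4.35% of all tested genes. The gene acox-1.1 was tested only through aak(0) library 1, since without that library it averaged 0.783 FPKM, under the minimum of 1. edgeR and DESeq2 on the recovered reads called 0 members as well, beside 0.0214% and 0.0218% of genes. In the authors' deposited table, 0 of 93 members had an adjusted p under 0.05, 15 (16.1%) had an unadjusted p under 0.05, and the lowest adjusted p was 0.334. Over all 24419 genes with a p in the authors' deposited table, 13.3% had an unadjusted p under 0.05 and 0% an adjusted one. The labels do not say that the replicate libraries were separate cultures, so a p-value here reflects the spread among these libraries alone, and that spread may be technical.

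The members shifted with the rest of the genes. Their median aak(0) minus daf-2 difference was 0.65 on the log2(FPKM + 1) scale, and that of all tested genes was 0.59. The medians were 0.69 for the 16 synthesis genes, 0.03 for the 2 lipolysis genes, 0.67 for the 21 oxidation genes and 0.89 for the 19 activation and binding genes. Scaling each library by the median of ratios brought the members to 0.16 and all genes to 0.18. Summed protein-coding FPKM was itself between 75003 and 86248 in aak(0) and between 43051 and 65826 in daf-2. Of 33 tested fat regulators and other lipid enzymes outside the 95, 0 passed the test, 29 had a positive difference, and the median was 0.56. The difference was likewise positive in 42 of the 58 members and in 6779 of all 9649 tested genes. Of the fat regulators, the transcriptional coregulator gene mdt-15 measured 14.59, 27.05 and 26.9 FPKM in aak(0) and 27.09, 18.15 and 19.49 FPKM in daf-2. The nuclear receptor gene nhr-49 measured 29.63, 16.04 and 13.83 FPKM in aak(0) against 7.67, 5.68 and 2.19 FPKM in daf-2. Every aak(0) library exceeded every daf-2 library for nhr-49, where 10% of all tested genes did so, and it was picked after its values were seen. The most abundant gene of this list, alh-8, measured 116.69, 129.96 and 132.44 FPKM in aak(0) and 106.76, 124.86 and 256.07 FPKM in daf-2, with overlap. With GFP, mdt-15 measured 37.07 FPKM and nhr-49 measured 22.33 FPKM, the latter among its aak(0) values.

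In 10 of the 58 tested members (17.2%) every aak(0) library exceeded every daf-2 library, where 10% of all tested genes did so, and in 0 members was every daf-2 library higher, where 0.746% of genes were. The count is given as a description, since the filter on mean FPKM let some genes in through aak(0) library 1: without it, acdh-9, acox-1.1 and acox-1.6 averaged 0.86, 0.783 and 0.295 FPKM over the other 6 libraries, under the minimum of 1, and acdh-4 averaged 1.16. By role these were 2 of 16 synthesis genes, 0 of 2 lipolysis genes, 7 of 21 oxidation genes and 1 of 19 activation and binding genes. The acyl-CoA synthetase gene acs-4 (WBGene00018152, chromosome III, 7167838 to 7170990) measured 20.12, 26.59 and 25.23 FPKM in aak(0), 12.73, 8.94 and 12.72 FPKM in daf-2 and 42.21 FPKM with GFP. The log2 difference of acs-4 was 1.01 ± 0.45 (SE), with a limma adjusted p of 0.717. The gap between genotypes was larger than the spread within either, and the GFP control was higher than all 6.

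The gene ech-1.2 (WBGene00020347), whose product is homologous to the alpha subunit of the mitochondrial trifunctional protein, measured 11.59, 16.64 and 16.89 FPKM in aak(0), 7.57, 5.07 and 6.44 FPKM in daf-2 and 29.75 FPKM with GFP. The log2 difference of ech-1.2 was 1.12 ± 0.49 (SE), with a limma adjusted p of 0.717. The carnitine palmitoyltransferase gene cpt-2 (WBGene00011122) measured 13.19, 9.28 and 10.67 FPKM in aak(0), 3.66, 4.27 and 6.25 FPKM in daf-2 and 17.9 FPKM with GFP. Both genes had tight groups, and both had the control above all 6 HZL-1 libraries. The log2 difference of cpt-2 was 1.09 ± 0.52 (SE).

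The acetyl-CoA carboxylase gene pod-2 (WBGene00004076) measured 19.08, 16.45 and 18.32 FPKM in aak(0), 15.58, 8.56 and 2.68 FPKM in daf-2 and 29.58 FPKM with GFP. The aak(0) values were close together, and the daf-2 values were spread from 2.68 up to nearly the lowest of aak(0). The fatty acid synthase gene fasn-1 (WBGene00009342) measured 22.65, 8.09 and 8.3 FPKM in aak(0), 2.83, 6.45 and 4.85 FPKM in daf-2 and 10.86 FPKM with GFP. Here aak(0) library 1 stood far above the other 2. The log2 differences were 1.18 ± 0.67 (SE) for pod-2 and 1.19 ± 0.65 (SE) for fasn-1. In recovered reads pod-2 overlapped, with 792, 2206 and 2654 in aak(0) and 2404, 1098 and 305 in daf-2. The authors' log2 fold change of daf-2 over aak(0) ran the other way for pod-2 (1.28), ech-1.2 (0.26) and acs-4 (0.05). It ran the same way, below 0, for fasn-1 (-1.88), cpt-2 (-0.72), acdh-4, acdh-9, acdh-11, acox-1.1 and acox-1.6.

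The other 5 of the 10 are low oxidation genes. The acyl-CoA dehydrogenase gene acdh-4 measured 12.23, 1.92 and 1.68 FPKM in aak(0) and was listed at 0 in all 3 daf-2 libraries, and its GFP value was 3.38 FPKM. In reads, acdh-4 had 137, 64 and 51 in aak(0) and 1, 0 and 0 in daf-2. The acyl-CoA oxidase gene acox-1.1 measured 11.95, 2.47 and 1.16 FPKM in aak(0), 0, 0.48 and 0 FPKM in daf-2 and 0.59 FPKM with GFP. In both, aak(0) library 1 was several times the other aak(0) libraries. The log2 differences of acdh-4, acox-1.1, acdh-9, acdh-11 and acox-1.6 lay between 1.37 and 2.23, and the added 1 makes such differences smaller for genes of low level.

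**Figure D3:**
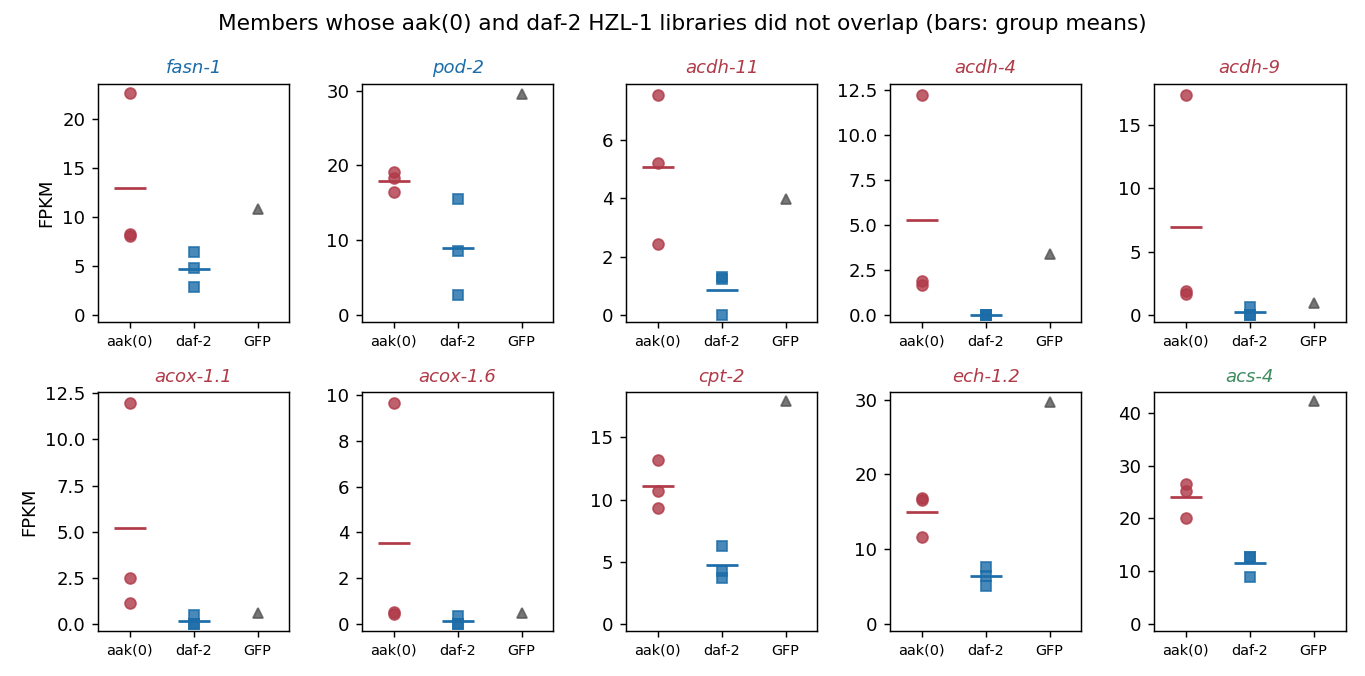
FPKM in each intestinal-promoter library for the 10 members whose aak(0) HZL-1 libraries all exceeded the daf-2 libraries; bars are group means of 3 libraries, and the triangle is the single GFP library. In pod-2, cpt-2, ech-1.2 and acs-4 the GFP value lies above all 6 HZL-1 libraries.

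This count depends on scaling and on single libraries. After each library was scaled to its own sum of protein-coding FPKM, 5 members were left (acdh-11, acdh-4, acdh-9, acox-1.1 and cpt-2), beside 4.14% of genes. With recovered reads scaled to the protein-coding total there were 4 (acdh-4, acdh-9, acs-4 and cpt-2), beside 4.49% of genes. Both lists hold acdh-4, acdh-9 and cpt-2. Of the genes in these lists, acdh-9 and acox-1.1 passed the filter on mean FPKM only through aak(0) library 1, so the lists are a description. Without aak(0) library 1 the count rose to 26 of 58, beside 40.9% of genes. Without all 3 libraries that stood apart it was 48, beside 71.7%, with 1 daf-2 library remaining. Without aak(0) library 1 alone, limma called 3 members higher in aak(0), beside 6.24% of genes. These were elo-8, acs-18 and acdh-4, with limma adjusted p of 0.0439, 0.0441 and 0.0402. The elongase gene elo-8 measured 0, 2.85 and 5.14 FPKM in aak(0), and all 3 of its daf-2 values were listed as 0. Leaving out that library also gave 3 members lower in daf-2 than with GFP by limma (acdh-4, acdh-8 and elo-7), beside 4.67% of genes. All 3 were listed at 0 in every daf-2 library and measured 3.38, 3.82 and 4.93 FPKM with GFP. In that fit they passed the filter on mean FPKM only through the GFP library, so these calls are a description.

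The next comparisons asked which members were recovered with HZL-1 beyond GFP alone, over a single GFP library whose spread was assumed to equal that of the other groups. With limma, 0 of 58 members passed in aak(0) or in daf-2, beside 1.07% of all tested genes in each. At an unadjusted p under 0.05 there was 1 member in aak(0), beside 1.94% of genes, and there were 5 in daf-2, beside 7.54%. Both contrasts share the GFP library. The members' median difference from GFP was -0.66 in aak(0) and -1.1 in daf-2, beside -0.79 and -1.28 for all genes. The daf-2 contrast also differs from the control in AMPK genotype.

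Every aak(0) HZL-1 library exceeded GFP in 4 members (acdh-9, acox-1.1, elo-2 and fat-4), beside 3.09% of genes, and fell short of it in 27, beside 50.3%. Of those 4, acdh-9 and acox-1.1 passed the filter on mean FPKM only through aak(0) library 1. Without that library they averaged 0.86 and 0.783 FPKM, so the count of 4 is a description. Every daf-2 library exceeded GFP in 0 members, beside 1.1%, and fell short in 34, beside 57.6%. All 6 HZL-1 libraries were below GFP in 18 members, beside 35%, and above it in 0, beside 0.197%. Summed protein-coding FPKM was 104725 in the GFP library, above every HZL-1 library. After scaling to that sum, all 6 HZL-1 libraries exceeded GFP in 2 members, the desaturase genes fat-1 and fat-4, beside 1.34% of genes, and fell short in 6 (acdh-13, acs-13, acs-4, daf-22, ech-1.2 and elo-7), beside 14.9%.

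Across the 95 members, the profile of the GFP library was close to those of aak(0) libraries 2 and 3, with Pearson's r of 0.92 and 0.94 on the log2 scale. The r between aak(0) libraries 2 and 3 was 0.95. Library 1 of aak(0) had an r of 0.59 and 0.57 with the other 2 libraries of its group. These values are descriptions over genes that share their libraries and their lengths, and genes are not replicates.

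The last comparison set aak(0) beside daf-2 where HZL-1 was made from its own promoter. With 1 library per genotype there is no replicate check and no p-value, and intervals are exact 95% binomial intervals that cover counting error only. The members took 0.259% of 15923668 protein-coding reads in aak(0) and 0.698% of 16012184 in daf-2, which is 2.7-fold higher in daf-2 (2.67 to 2.73). By role the excess was 2.98-fold for synthesis (2.92 to 3.04), 1.74-fold for lipolysis (1.66 to 1.83), 2.35-fold for oxidation (2.31 to 2.41) and 2.90-fold for activation and binding (2.84 to 2.96).

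Other gene lists moved too. The fat regulators and other lipid enzymes outside the 95 were 3.07-fold higher in daf-2, intestine markers 2.32-fold, germline markers 4.16-fold, neuron markers 4.65-fold and body wall muscle markers 4.92-fold, while hypodermis markers stood at 0.867-fold. Ribosomal RNA was 29.5% of gene reads in aak(0) and 70.1% in daf-2, and reads assigned to no feature were 48.6% and 4.11% of all reads. Scaled to all gene reads, the members were at 0.171% in aak(0) and 0.192% in daf-2, a ratio of 1.12, with synthesis at 1.24, activation and binding at 1.21, oxidation at 0.979 and lipolysis at 0.725. The direction for oxidation and lipolysis thus depends on the scaling, and the part of library composition in these ratios was not tested.

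Of 87 members with a mean of at least 1 CPM (counts scaled to the protein-coding total), 36 were at least 2-fold higher in daf-2, beside 34.1% of genes, and 28 at least 2-fold higher in aak(0), beside 45%. Scaled to all gene reads the split was 16 and 39, beside 16.5% and 53.8% of genes. By the median of ratios it was 22 and 40 of 88, beside 19.3% and 53%. With a mean of at least 10 CPM it was 35 and 14 of 71, beside 46.5% and 22.2%. The members' median log2 difference of aak(0) over daf-2 was -0.54, beside 0.25 for all genes. That median was 0.66 beside 1.33 when scaled to all gene reads, 0.49 beside 1.3 by the median of ratios, and -0.94 beside -0.87 with a mean of at least 10 CPM. Taking 0 reads as 3 reads, the medians were -0.57 and 0.26. Much of the count higher in aak(0) came from genes with no reads in daf-2: 21 members had reads in aak(0) and 0 in daf-2, beside 37.9% of genes. Among 64 members with reads in both libraries, 34 were at least 2-fold higher in daf-2, beside 50.6%, and 7 at least 2-fold higher in aak(0), beside 12.5%.

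Scaled to protein-coding reads, the most abundant members were higher in daf-2. Of these, fat-2, fat-4 and fat-6 turned the other way when scaled to all gene reads. The gene cpt-1 had 865 reads in aak(0) and 8605 in daf-2, a ratio of 9.89 (9.22 to 10.6). The desaturase gene fat-1 had 810 and 6354 reads, a ratio of 7.80 (7.25 to 8.40). The synthetase gene acs-4 had 1395 and 10022 reads, a ratio of 7.14 (6.75 to 7.56). These 3 stayed above 1 when scaled to all gene reads, at 4.11, 3.24 and 2.97.

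The lipase gene atgl-1 had 487 and 3068 reads, a ratio of 6.26 (5.69 to 6.91). The gene fasn-1 had 1401 and 5825 reads and pod-2 had 3908 and 14884, ratios of 4.13 (3.90 to 4.39) and 3.79 (3.66 to 3.92). Differences were smaller for fat-2 at 2.05, fat-4 at 1.82, hosl-1 at 1.76 and fat-6 at 1.5, and these 4 fell below 1 when scaled to all gene reads, at 0.853, 0.757, 0.731 and 0.623. The regulator gene sbp-1 ran the other way, with 939 reads in aak(0) and 544 in daf-2, 1.74-fold higher in aak(0) (1.56 to 1.93).

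Some members had reads almost only in 1 library of this pair. The desaturase gene fat-5 had 0 reads in aak(0) and 457 in daf-2. Scaled to protein-coding reads, with 0 taken as 3 reads, it was at least 151-fold higher in daf-2. The gene elo-3 had 0 and 342 reads, at least 113-fold higher on the same scaling. The synthetase gene acs-21 had 1 and 559 reads, a ratio of 556 (99.4 to 21996), and maoc-1 had 2 and 314, a ratio of 156 (42.9 to 1295). Scaled to all gene reads the ratios were lower, at 63 for fat-5, 47.1 for elo-3, 231 for acs-21 and 64.9 for maoc-1. The dehydrogenase gene acdh-8 had 34 and 864 reads, and cpt-4 had 51 and 907. In the intestinal set fat-5, acs-21 and maoc-1 had been listed above 0 in aak(0) libraries, fat-5 up to 1.48 FPKM.

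In the other direction, the acyl-CoA oxidase gene acox-1.2 had 700 reads in aak(0) and 0 in daf-2, at least 235-fold higher in aak(0), and acs-9 and acdh-2 had 468 and 422 reads against 0. The genes acdh-13 and lipl-6 had 556 and 507 reads in aak(0) and 1 each in daf-2. The lipase genes lipl-3, lipl-4 and lipl-8 had 86, 211 and 189 reads in aak(0) and 0 in daf-2, while lipl-7 had 435 and 302 reads. Most of these genes were near 0 in the intestinal set, where acox-1.2 did not exceed 0.15 FPKM. For 1097 protein-coding genes, all 7 intestinal libraries stood at 0 FPKM and no intestinal HZL-1 library had a recovered read. When HZL-1 came from its own promoter, reads were present for 46.3% of them in aak(0) and for 5.83% in daf-2.

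In 7 of the 58 members tested in the intestinal set, all intestinal aak(0) libraries exceeded the daf-2 libraries while the endogenous aak(0) library was below the daf-2 one. Such opposite patterns, in either direction, were seen in 9.93% of the 7843 genes tested in both sets.

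**Figure D4:**
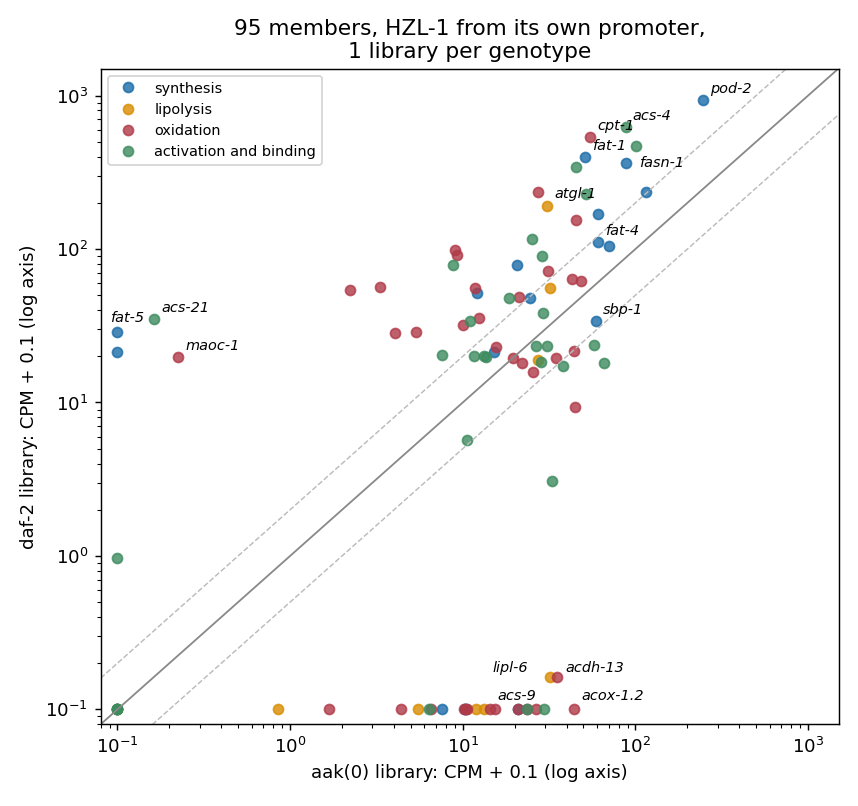
CPM + 0.1 of the 95 members in the endogenous-promoter daf-2 library against the aak(0) library, on log axes; the solid line marks equal levels and the dashed lines 2-fold differences. Abundant members such as pod-2, cpt-1, fat-1 and acs-4 lie above the upper dashed line, and a row of members with no daf-2 reads lies along the lower edge.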

How the data were processed

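Immunoprecipitated RNA was measured in 9 libraries. The build WBcel235 and the tools STAR 2.7.1a, Trimmomatic 0.35, DESeq2 1.30.1 and RSEM are named per the submitters' processing notes, and no source used here gives their settings. Deposited by the authors were FPKM for 7 intestinal-promoter libraries, and raw counts for the endogenous pair. A further deposited table held a normalized signal per gene for the 6 intestinal HZL-1 libraries, with the authors' log2 fold changes, p-values and a score for the test statistic. That signal was a whole number of reads times a library factor in 100% of values (tolerance 0.01), so reads were recovered, 7151604 to 17397251 per library. How deeply the GFP library was sequenced is unknown.

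limma 3.58.1 (R 4.3.3) with a mean-variance trend was fitted to log2(FPKM + 1) of the 7 libraries for the 9649 genes averaging 1 FPKM or more. P-values were adjusted by Benjamini-Hochberg over all of them, with 0.05 as the threshold. Recovered reads were tested with edgeR 4.0.16 (quasi-likelihood) and DESeq2 1.42.0. The endogenous counts were scaled to CPM over protein-coding reads with a pseudocount of 1. The plan had assumed FPKM there. Entries that name no gene (62.1% and 29.6% of all reads in aak(0) and daf-2) were left out. With 0 reads taken as 3, the floor was 0.188 and 0.187 CPM in that pair. Reads carried no molecular identifiers, so intervals and floors describe counting error and not independent molecules. The scripts were tested on simulated data.

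The members, the other gene lists and the tests were chosen with earlier results of these data known. Named genes were the 5 most abundant of each role, atgl-1, hosl-1, pod-2, fasn-1, sbp-1, daf-22, dhs-28 and maoc-1, up to 5 per direction without overlap at 10 FPKM or more, and up to 5 per direction in the endogenous pair at 10 CPM or more. Members named beside a small count, and mdt-15 and nhr-49, were chosen after their values were seen.

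Same-numbered libraries of the genotypes did not deviate together (correlations of -0.11, -0.05 and -0.10), so the numbers were not taken to pair samples. Alternatives covered the pseudocount, the filter, scaling, the trend, the tool, a replicate block and each library left out. The comparison of non-overlapping libraries under other scalings and without libraries was added after seeing the data.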

Additional observations from a re-analysis of the deposited data

Results flagged for a closer look

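In 7 of the 58 members tested in the intestinal set, the endogenous pair ran opposite to the intestinal libraries. All 3 intestinal aak(0) libraries exceeded all 3 daf-2 libraries, while the endogenous aak(0) library was below the daf-2 one. Of these 7, acox-1.1 passed the filter on mean FPKM only through intestinal aak(0) library 1, averaging 0.783 FPKM without it. The endogenous log2 difference of aak(0) over daf-2 was -2.82 for acs-4, -2.56 for acox-1.1, -2.04 for fasn-1, -1.92 for pod-2, -1.75 for ech-1.2, -1.58 for acdh-4 and -0.56 for cpt-2. Scaled to all gene reads, cpt-2 ran the same way in both sets, with an endogenous log2 difference of 0.67, and the other 6 still ran opposite. After the intestinal libraries were scaled to their protein-coding FPKM, the groups overlapped for acs-4, fasn-1, pod-2 and ech-1.2. Of the 7843 genes tested in both sets, 9.93% showed an opposite pattern in either direction. The difference between the promoters was not tested, since the endogenous set has 1 library per genotype.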

How the results depend on the processing

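The count of members past the adjusted threshold in the intestinal aak(0) against daf-2 comparison was 0 under every alternative tried with limma, edgeR or DESeq2, except that it was 3 without aak(0) replicate 1 (range 0 to 3 with single libraries left out), where all genes gave 618. For daf-2 against GFP it was 3 without aak(0) replicate 1 (range 0 to 3), where all genes gave 462. Those 3 members passed the filter there only through the GFP library. With no filter on low values it was 3 in each GFP contrast, lbp-7, lbp-8 and acox-1.3, all lower than GFP, beside 2058 genes for aak(0) and 2348 for daf-2. These 3 did not exceed 0.19, 0 and 0.03 FPKM in any HZL-1 library and measured 1.44, 0.43 and 0.55 FPKM with GFP. Their small spread came from listed zeros, so these calls are a description. In daf-2 library 3, lbp-7 was listed at 0 with 86 reads. With a minimum mean of 5 FPKM, or no variance trend, all genes gave 0 calls against GFP. In the fit with the replicate block, 0 members and 0 genes were called, and edgeR with the replicate block likewise called 0 and 0. The members' median turned to -0.026 (aak(0) minus daf-2, edgeR with DESeq2 size factors) and to 0.032 (daf-2 minus GFP, quantile normalization). The difference of atgl-1 lay between -0.86 and 0.74 with single libraries left out, turning to 0.20 without daf-2 replicate 1, and to 0.99 without the 3 libraries holding the fewest genes. Members with aak(0) above daf-2 in every library numbered 5 after scaling to protein-coding FPKM, 4 in CPM of recovered reads, 11 to 26 with single libraries left out, and 48 without those 3 libraries, where 1 daf-2 library remains. In the endogenous pair, members higher in daf-2 numbered 16 per all gene reads (16.5% of genes) and 22 by the median of ratios (19.3%), and those higher in aak(0) 14 at a minimum of 10 CPM (22.2%). The causes were not tested. Coding reads numbered 1561821 in daf-2 library 2, which listed 10473 coding genes, and 1629844 and 2319975 in libraries 1 and 3, which listed 4629 and 5517.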
